A study of Mus musculus with 12 samples.

Results

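The renin-angiotensin genes described here are 8 genes of the hormone system that makes and senses angiotensin II: Agt, Ace, Ctsg, Enpep, Agtr1a, Agtr2, Agtrap and Atp6ap2. They were found by symbol, as every non-control probe whose gene name in the scanner files equals one of the 8. This gave 8 of 37074 named genes and 11 of 56605 probes. Agtrap has 3 probes, Enpep has 2 and each other gene has 1.

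RNA from heart muscle of male C57BL6/J mice aged 5 months was hybridised to 12 one-colour Agilent arrays, 1 array for each of 3 mice in 4 groups. Control mice (C) received neither agent, and C + P mice received pargyline at 50 mg/kg/day for 12 weeks. Diabetic mice (D) received streptozotocin at 50 mg/kg/day for 5 days, and D + P mice received streptozotocin and then pargyline at the same dose and duration as C + P. Pargyline blocks monoamine oxidase, the mitochondrial enzyme that breaks down catecholamines, and streptozotocin kills the insulin-producing cells of the pancreas, so the D groups are a model of insulin loss with hyperglycaemia. RNA was taken from tissue and not from sorted cells.

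C and D were hybridised on 1 slide and C + P and D + P on another, so pargyline and slide (or scan) cannot be told apart. Control and diabetic arrays lay in different rows of each slide, so diabetes and slide row cannot be told apart either. Between 23556 and 29231 of 59305 spots were well above background per array, and no spot was saturated. All 6 cardiomyocyte markers (Myh6, Tnnt2, Actc1, Ttn, Myh7 and Ryr2) were well above background on 12 of 12 arrays. None of 4 adipocyte markers was so on any array. Of 4 liver markers, Alb, Apoa1 and Ttr were on 0 arrays and Apoa2 was on 12.

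As background, angiotensinogen (Agt), made mostly by the liver, is cut by renin to angiotensin I, and angiotensin-converting enzyme (Ace) on endothelial cells cuts this to angiotensin II. Angiotensin II contracts vessels and promotes growth and fibrosis of the heart through the type 1 receptor, and makes the adrenal cortex release aldosterone, which acts on the mineralocorticoid receptor. The type 2 receptor is mainly a fetal receptor that often opposes the type 1 receptor. Other proteases stand beside this route: chymases and cathepsin G, which form angiotensin II without Ace, and aminopeptidases, which trim it.

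Of the 11 probes, 5 were well above background on 12 of 12 arrays: those of Agt, Ace, Agtr1a and Atp6ap2 and 1 of Agtrap. The Enpep probe used as its representative was well above background on 7 arrays, the second Agtrap probe on 11 and the third on 2. Ctsg was on 1 array, and Agtr2 and the second Enpep probe were on 0. The tests took 9 probes of 7 genes, those that the scanner software marked as positive and significant on 50% or more of each group's arrays. Ctsg and the second Enpep probe did not pass this filter.

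Probe sequences are shown for the genes with several probes, because each probe reads another stretch of the transcript. The dimmest probe of each, of 60 bases, is given as listed in the scanner files, with no part marked:
Agtrap: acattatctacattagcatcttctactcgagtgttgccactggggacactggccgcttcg
Enpep: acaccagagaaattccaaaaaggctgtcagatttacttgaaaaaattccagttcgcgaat
On the mm9 build the Agtrap probe lies at chr4:147455774-147455833 on the minus strand, and the Enpep probe spans chr3:129002052-129006662 on the minus strand, a stretch far longer than the probe and so broken by at least 1 intron. Their brighter partners lie at chr4:147451680-147451739 and chr3:128972910-128972969, in both cases nearer the 3′ end of the gene. The remaining Agtrap probe lies between, at chr4:147454431-147454490.

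**Figure D1:**
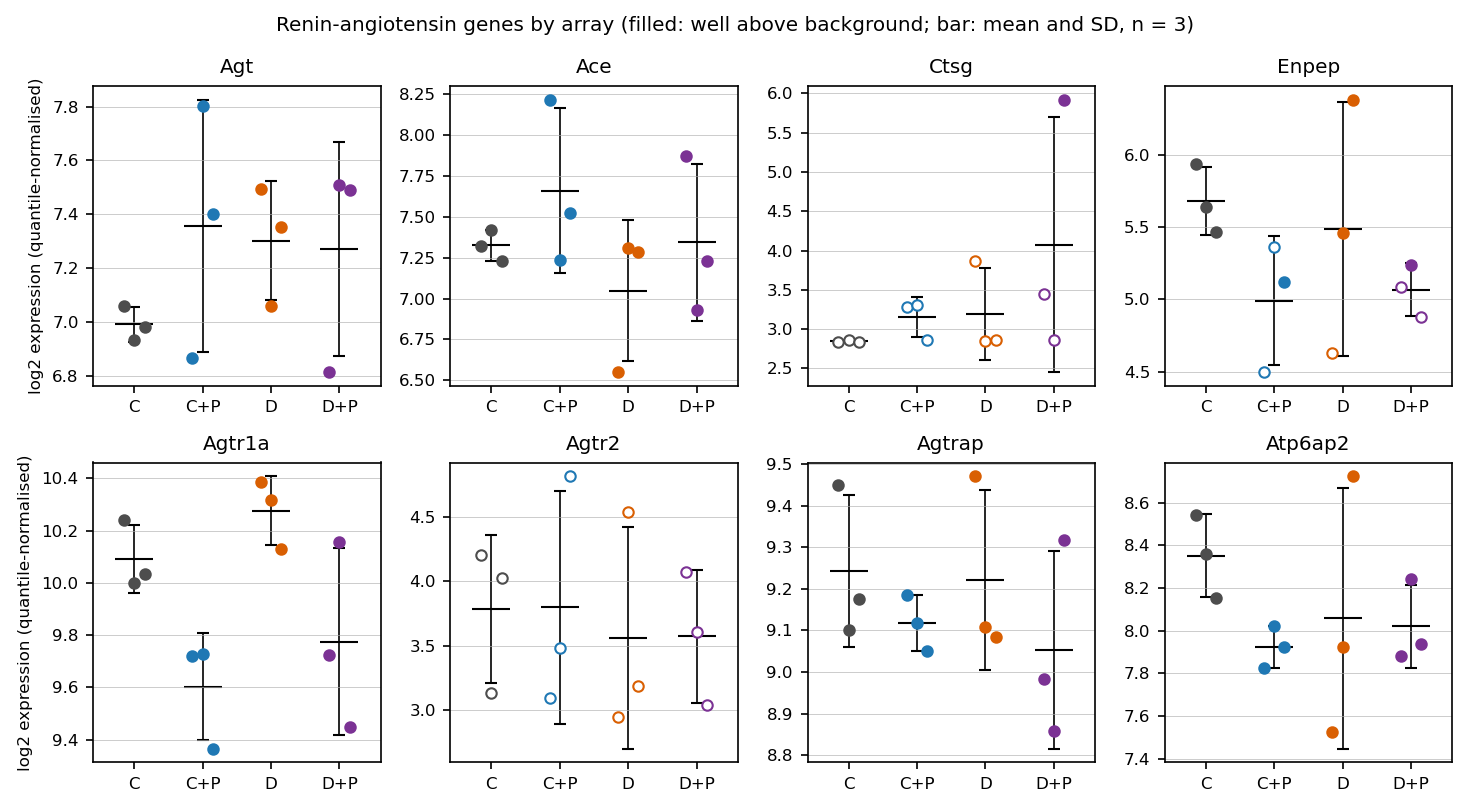
Log2 expression (quantile-normalised, y axis) of the 8 members on each of the 12 arrays, by group on the x axis. Filled points are well above background and open points are not; the bar is the mean and SD of 3 arrays. The C + P arrays all lie below the C arrays for Agtr1a (up to 9.73 against 10.001 or more), Atp6ap2 and Enpep.

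No tested member passed in any comparison. With limma and Benjamini-Hochberg adjustment over 30859 probes, 0 of 9 member probes had an adjusted p under 0.05 in D against C, where 0.00648% of all probes did. The count was also 0 when D + P was set against C + P (background 0.0454%), when diabetes was averaged over pargyline (0.107%) and for the interaction (0.00648%). For pargyline it was 0 in non-diabetic hearts (C + P against C, 0.0324%) as well as in diabetic hearts (D + P against D, 0%). It remained 0 for the effect of pargyline averaged over diabetes (0.0551%), a comparison added after the values were seen. At an unadjusted p under 0.05, Agtr1a was the 1 of 9 member probes past the threshold in C + P against C (background 4.43%), D + P against D (13.3%) and pargyline averaged over diabetes (10.2%). At that threshold 0 of 9 passed for diabetes averaged over pargyline (11.4%), the interaction (7.03%), D against C (10.8%) or its counterpart under pargyline, D + P against C + P (7.46%). The methods' t-test with Bonferroni or Benjamini-Hochberg adjustment also called 0 member probes in each of the 4 pairwise comparisons, where it called 0 of all 30859 probes in D against C and 1 in each of the others. Unadjusted, this t-test put 2 member probes (Agtr1a and Atp6ap2) under 0.05 in C + P against C. In D + P against D and in both diabetes comparisons it put 0 there. The share of all probes was not counted for the unadjusted t-test.

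Over the 9 probes, the median log2 difference was -0.22 in D against C, where the median of all tested probes was -0.01. It was -0.12 in C + P against C, beside -0.01 for all probes. These medians count Agtrap 3 times and include probes well above background on few or no arrays, Agtr2 among them. Over the 5 probes well above background on 12 arrays, a set chosen after the values were seen, they were -0.02 and -0.12.

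**Figure D2:**
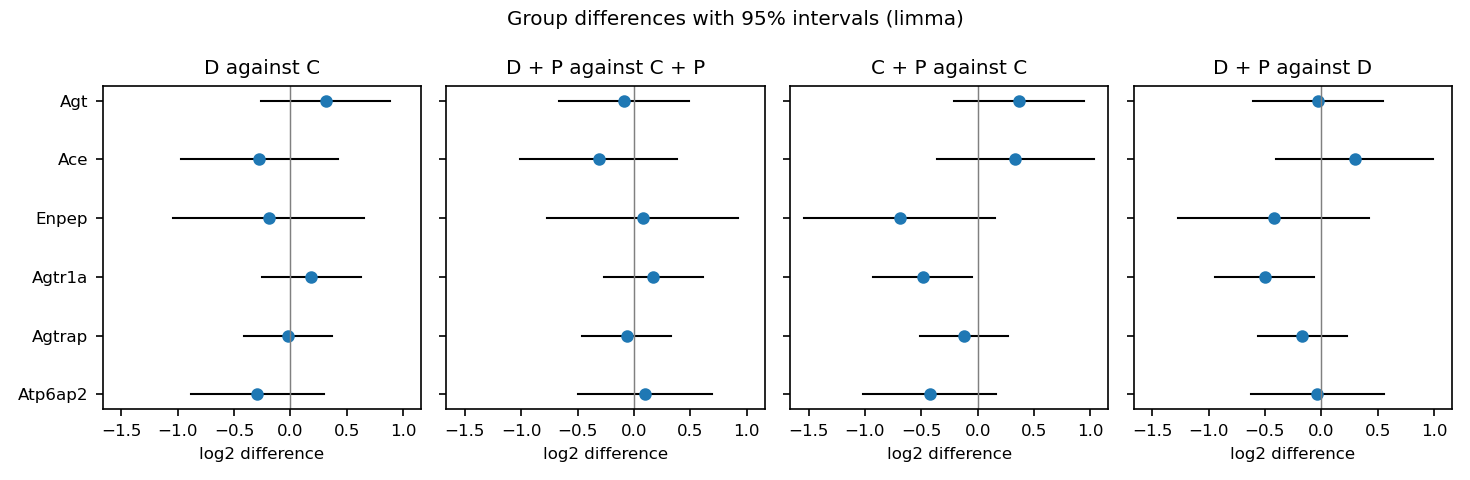
Log2 difference between groups (x axis) for 6 members (y axis) in 4 comparisons, each with its 95% interval from limma, before adjustment for multiple testing. The intervals of Agtr1a in C + P against C (-0.93 to -0.05) and D + P against D (-0.94 to -0.06) lie below 0.

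Agtr1a encodes the type 1 receptor, through which angiotensin II acts on vessels, cardiomyocytes and fibroblasts. Its log2 expression was 10.24, 10.001 and 10.03 in C and 9.72, 9.73 and 9.37 in C + P. It was 10.38, 10.31 and 10.13 in D and 9.72, 10.16 and 9.45 in D + P. All 3 C + P arrays lay below all 3 C arrays, whereas D + P replicate 2 lay within the range of D. C + P differed from C by -0.49 (SE 0.20, limma adjusted p = 0.9998, unadjusted p = 0.032), a ratio of 0.71. D + P differed from D by -0.50 (SE 0.20, limma adjusted p = 0.31, unadjusted p = 0.029). Neither difference passed after adjustment. Averaged over diabetes, the difference with pargyline was -0.49 (95% interval -0.80 to -0.18, limma adjusted p = 0.27).

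With diabetes, Agtr1a differed by 0.18 without pargyline (95% interval -0.25 to 0.62) and by 0.17 with it (-0.27 to 0.61). The interaction was -0.01 (95% interval -0.63 to 0.61, limma adjusted p = 0.99). The part of the slide in the pargyline differences cannot be told apart from that of the drug, and in tissue RNA fewer cells of a type and less RNA per cell cannot be told apart. Markers of the cells that carry the receptor gave these values over pargyline: 0 of 4 smooth muscle, 0 of 6 fibroblast and 0 of 6 pericyte markers had an adjusted p under 0.05 in C + P against C. A summed level here is the log2 of the summed linear intensities of a marker list, so the brightest genes weigh most. The summed level of the 6 pericyte markers was 13.96 to 14.05 in C and 13.48 to 13.93 in C + P, and 13.68 to 13.88 in D and 13.93 to 14.14 in D + P. That of the 6 fibroblast markers was 15.37 to 15.53 in C and 15.26 to 15.37 in C + P, also lower in C + P, and 15.43 to 15.59 in D and 15.40 to 15.69 in D + P. That of the 4 smooth muscle markers overlapped, at 13.06 to 13.28 in C and 12.97 to 13.34 in C + P, and at 12.93 to 13.38 in D and 12.82 to 13.20 in D + P. The part of these markers in the Agtr1a values was not tested.

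Agtr2, the type 2 receptor, was not well above background on any array, so no fold is given. Its values ran from 2.95 to 4.81 over the 12 arrays, and the groups overlapped. The probe entered the test because it was positive and significant on 10 arrays.

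Agtrap encodes a protein that binds the type 1 receptor and favours its internalisation. On the brightest probe its log2 expression was 9.45, 9.10 and 9.18 in C, 9.19, 9.12 and 9.05 in C + P, 9.47, 9.11 and 9.08 in D, and 8.98, 8.86 and 9.32 in D + P. All groups overlapped on this probe, and the difference of D from C was -0.02 (95% interval -0.41 to 0.37, limma adjusted p = 0.97). C + P differed from C by -0.12 (-0.52 to 0.27). The second probe stood between 6.86 and 7.66 on 11 arrays and at 5.44 on D replicate 1, the array with the fewest spots well above background. The correlation of the brightest probe with the second over 12 arrays was -0.49, and with the third 0.17, so the 3 probes did not order the arrays alike.

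Atp6ap2 encodes the (pro)renin receptor, also an accessory subunit of the proton pump of lysosomes. Its log2 expression was 8.54, 8.36 and 8.15 in C and 7.83, 8.02 and 7.92 in C + P. The C + P arrays all lay below the C arrays. It was 7.53, 7.92 and 8.72 in D, a spread that covered every other array, and 7.88, 8.24 and 7.94 in D + P. C + P differed from C by -0.43 (SE 0.27, 95% interval -1.02 to 0.16, limma adjusted p = 0.9998) and D from C by -0.29 (-0.88 to 0.30, adjusted p = 0.69). The latter was -0.03 without D replicate 1 and -0.63 without D replicate 3.

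Enpep is aminopeptidase A, which removes the first residue of angiotensin II and lies on pericytes and small vessels. It read 5.94, 5.64 and 5.47 in C, each well above background, and 4.50, 5.36 and 5.12 in C + P, where 1 of 3 was. It read 4.63, 5.46 and 6.38 in D (2 of 3) and 5.09, 5.24 and 4.88 in D + P (1 of 3). The C + P arrays again lay below the C arrays, while D held both the highest array and one of the lowest. C + P differed from C by -0.69 (SE 0.38, 95% interval -1.54 to 0.16, limma adjusted p = 0.9998), and by -0.44 without C + P replicate 1. D differed from C by -0.19 (-1.04 to 0.65) and D + P from D by -0.42 (-1.27 to 0.42). Without D replicate 1 the former was 0.24, and without D replicate 3 the latter was 0.02. The pericyte marker level given above was lower in C + P than in C without overlap, as Enpep was, but higher in D + P than in D without overlap, where Enpep read lower on average. Its part in the Enpep values was not tested.

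Agtr1a, Atp6ap2 and Enpep were thus the 3 of 9 member probes whose C + P and C arrays did not overlap, each lower in C + P. Of all tested probes, 15.3% did not overlap in that comparison, in either direction. None of the 9 failed to overlap in D against C (background 22.2%), D + P against C + P (13.9%) or D + P against D (17%).

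Atp6ap2 and Enpep were the pair of members with the highest correlation, chosen for that after all pairs were seen (the next highest was 0.39). Over 12 arrays the Pearson correlation was 0.91 and Spearman's rho 0.89. Without C replicate 1 and D replicate 3, the arrays farthest from the Atp6ap2 median, Pearson's r was 0.78 over 10 arrays. Within the slide of C and D it was 0.97, and within that of C + P and D + P it was 0.65, with 6 arrays each. It was 0.92 for the deviations from the group means. The points share arrays, normalisation and tissue makeup, and 5 of the 12 Enpep values were not well above background.

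**Figure D3:**
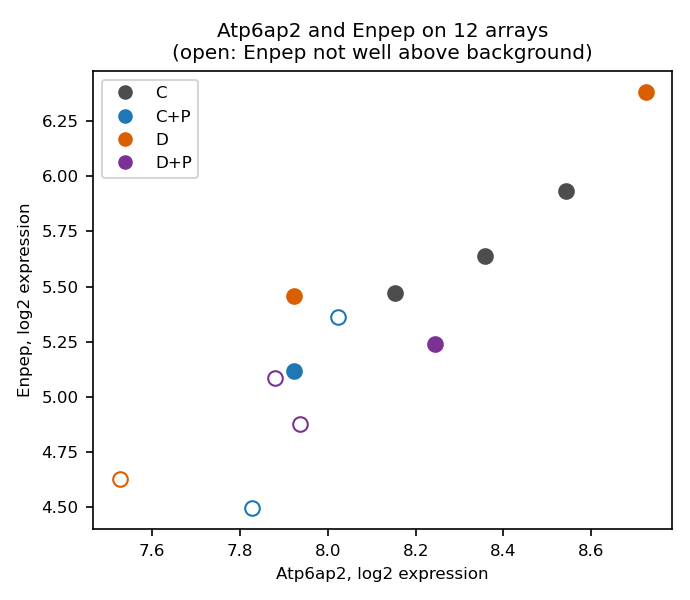
Log2 expression of Enpep (y axis) against Atp6ap2 (x axis) on each of the 12 arrays, coloured by group; open points mark arrays on which Enpep was not well above background. D replicate 3 is highest in both genes, at 8.72 and 6.38.

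The promoters of these 2 genes are shown because their values moved together. Each line gives the 250 bases before the RefSeq start on GRCm38.p6, 5′ to 3′ on the gene's strand, with capitals where a searched motif or its reverse complement matched:
Atp6ap2: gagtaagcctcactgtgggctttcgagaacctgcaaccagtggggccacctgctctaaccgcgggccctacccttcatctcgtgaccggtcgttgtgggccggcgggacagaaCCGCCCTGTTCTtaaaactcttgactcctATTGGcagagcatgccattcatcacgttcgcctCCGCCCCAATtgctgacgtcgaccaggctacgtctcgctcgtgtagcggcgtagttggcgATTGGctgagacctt
Enpep: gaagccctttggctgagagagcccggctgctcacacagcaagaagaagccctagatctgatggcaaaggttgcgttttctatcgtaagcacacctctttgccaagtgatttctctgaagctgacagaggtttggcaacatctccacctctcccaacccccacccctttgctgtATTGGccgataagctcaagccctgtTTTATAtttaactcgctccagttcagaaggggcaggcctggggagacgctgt
They lie at chrX:12587509-12587758 (plus strand) and chr3:129332750-129332999 (minus strand). The motifs searched on both strands were the TATA box (TATAAA), the CCAAT box (CCAAT), the GC box (GGGCGG), the AP-1 element (TGAGTCA), the cyclic AMP response element (TGACGTCA), the glucocorticoid response half-site (AGAACA) and the EGR element (GCGTGGGCG). Both windows held the CCAAT box, as did 33.9% of 32851 promoters. In Atp6ap2, 1 match of the CCAAT box shares a base with a match of the GC box on the other strand. Enpep also held the TATA box (12.4% of promoters), and Atp6ap2 held the GC box (32.7%) and the glucocorticoid half-site (16.1%). The other 3 motifs matched in neither window, and 4.46%, 1.55% and 0.54% of all promoters held them, in the order given. Each match is a description of letters and no evidence of binding.

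Ace, the converting enzyme, read 7.32, 7.42 and 7.23 in C, 8.22, 7.24 and 7.52 in C + P, 6.55, 7.31 and 7.29 in D, and 7.87, 6.93 and 7.23 in D + P. C was the tightest group, and each other group overlapped it. D replicate 1 was the lowest array and C + P replicate 1 the highest. D differed from C by -0.28 (SE 0.32, 95% interval -0.97 to 0.42, limma adjusted p = 0.76) and D + P from C + P by -0.32 (-1.01 to 0.38, adjusted p = 0.84). C + P differed from C by 0.33 (-0.36 to 1.03). Single arrays set these sizes: without D replicate 1, D differed from C by -0.03, and without C + P replicate 1, D + P differed from C + P by -0.04 and C + P from C by 0.05. The probe lies at chr11:105850398-105850457 on mm9.

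Agt, the substrate, read 7.06, 6.93 and 6.98 in C, 6.87, 7.80 and 7.40 in C + P, 7.49, 7.06 and 7.35 in D, and 6.81, 7.51 and 7.49 in D + P. D replicates 1 and 3 lay above all C arrays. D replicate 2 and C replicate 1 were level at 2 decimals, so the groups overlapped. D differed from C by 0.31 (SE 0.26, 95% interval -0.26 to 0.89, limma adjusted p = 0.66) and D + P from C + P by -0.09 (-0.66 to 0.49, adjusted p = 0.96). C + P differed from C by 0.37 (-0.21 to 0.94, adjusted p = 0.9998), and by 0.14 to 0.61 when 1 array was left out. Agt and Ace had the lowest Pearson correlation of all pairs of members, -0.63 over the 12 arrays. Of the 4 liver markers, Apoa2 was, like Agt, well above background on 12 arrays, and Alb, Apoa1 and Ttr on 0. Apoa2, the 1 liver marker tested, differed by 0.31 in D against C, by 0.34 in D + P against C + P and by -0.37 in C + P against C. None of these passed the adjusted threshold, and the part of liver RNA in the Agt values was not tested.

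Ctsg encodes cathepsin G, a granule protease of neutrophils and mast cells. It was well above background on D + P replicate 3 alone, where it read 5.92. The other 11 arrays lay between 2.84 and 3.87, and Ctsg was not tested. Bdkrb2, a bradykinin receptor gene, was also above background on that array alone, at 6.14. D + P replicate 3 held 591 of the 3605 probes that were well above background on exactly 1 array, against 93 to 484 on each other array. The summed level (log2 of summed intensities) of 8 mast cell markers on that array was 9.03, within the 8.60 to 9.86 of the 12 arrays, and that of 8 neutrophil markers was 10.63, within 10.13 to 11.58. Of the 8 mast cell markers, 2 (Mcpt4 and Tpsb2) were well above background on 12 arrays and 3 (Cpa3, Tpsab1 and Ms4a2) on 0. Of the 8 neutrophil markers, 3 (Elane, S100a9 and Ly6g) were so on 12 arrays and 2 (Ngp and Ltf) on 0.

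**Figure D4:**
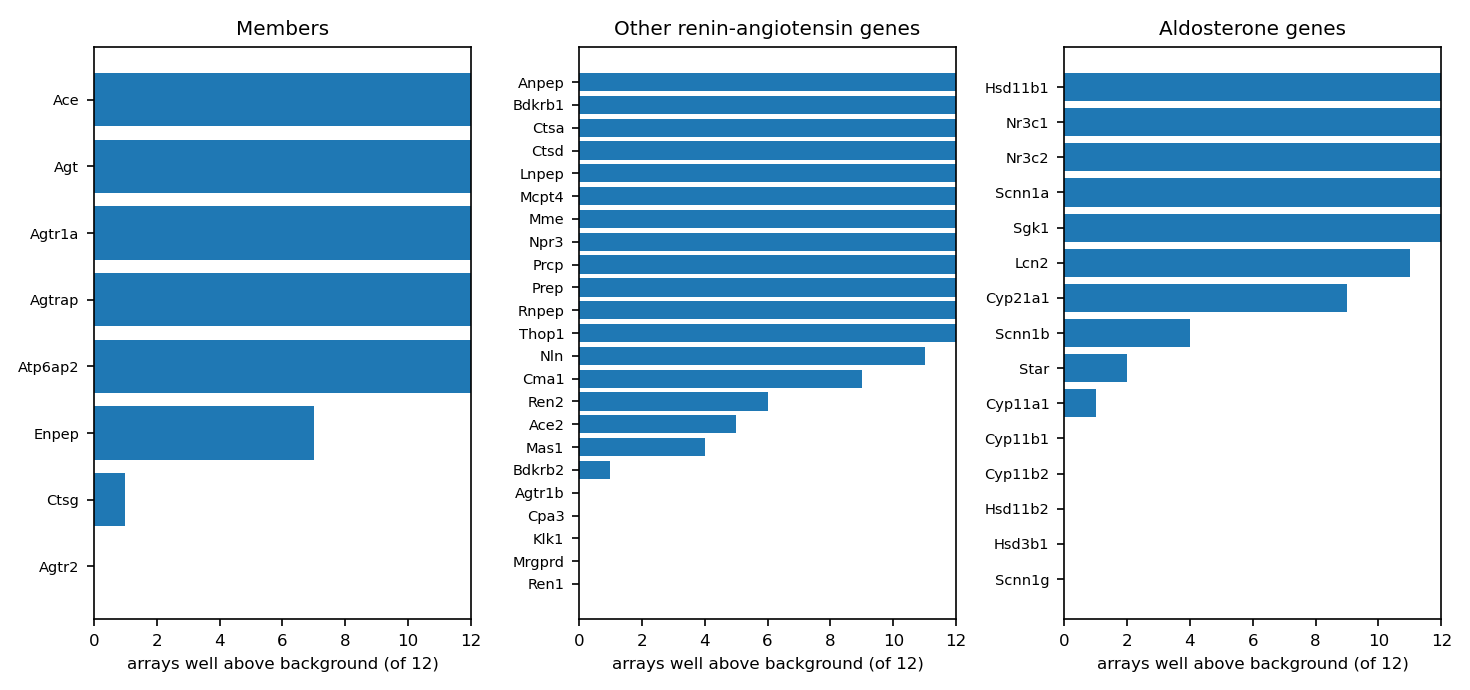
Number of arrays (x axis, of 12) on which each gene's representative probe was well above background, for the 8 members, the 23 other renin-angiotensin genes and the 15 aldosterone genes (y axes). Cyp11b1 and Cyp11b2 have no bar because they were above background on 0 arrays.

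The other 23 genes listed for the renin-angiotensin system include renins, further peptidases and further receptors. Of these, 18 were tested, 12 were well above background on 12 arrays and 5 on none (Agtr1b, Cpa3, Klk1, Mrgprd and Ren1). None passed the adjusted threshold in any comparison. At an unadjusted p under 0.05, 2 of the 18 were higher and 0 lower in D against C, where 10.8% of all probes passed in either direction. For D + P against C + P 2 were higher and 0 lower (7.46%), and 3 were higher and 0 lower when diabetes was averaged over pargyline (11.4%). These counts lie near the share of all probes. In C + P against C it was 0 in either direction (4.43%), and Mcpt4 was the 1 gene lower, with 0 higher, for D + P against D (13.3%) and for the interaction (7.03%). For pargyline averaged over diabetes (10.2%) Mcpt4 was the 1 lower and Thop1, a peptidase, the 1 higher, by 1.08 (SE 0.43, limma adjusted p = 0.44).

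The 3 higher when diabetes was averaged were Ren2, Mcpt4 and Anpep. The probe named Ren2 was well above background on 2 of 3 arrays of C, 0 of 3 of C + P, 3 of 3 of D and 1 of 3 of D + P. Ren2 is a duplicated renin gene that some mouse strains carry and C57BL6/J mice lack, so what this probe read is uncertain. It read 5.57, 4.62 and 5.22 in C, 4.52, 5.48 and 4.75 in C + P, 6.43, 5.91 and 5.94 in D, and 5.73, 5.35 and 5.71 in D + P. D lay above C throughout, while D + P overlapped both control groups. Averaged over pargyline, diabetes differed by 0.82 (SE 0.21, limma adjusted p = 0.21), and by 0.20 with normexp background correction. Most arrays under pargyline were not well above background, so the averaged difference rests in part on values at background.

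Mcpt4, a mast cell chymase that can form angiotensin II, read 5.96, 5.85 and 6.45 in C and 7.30, 7.17 and 7.29 in D. It read 6.19, 6.57 and 6.13 in C + P and 5.98, 6.02 and 6.62 in D + P. The 3 D arrays lay above the other 9. D differed from C by 1.17 (SE 0.23, limma adjusted p = 0.22) and D + P from D by -1.05 (SE 0.23, adjusted p = 0.17). The interaction was -1.26 (SE 0.32, adjusted p = 0.56). With array weights in limma the difference of D from C was 1.13 (adjusted p = 0.049), and over the other alternatives its adjusted p stayed above the threshold. With normexp background correction the differences were smaller, 0.77 for D against C and -0.55 for D + P against D. The summed level of the 8 mast cell markers, Mcpt4 among them, was 8.60 to 8.79 in C, 8.65 to 9.16 in C + P, 9.05 to 9.86 in D and 8.86 to 9.05 in D + P, and its part in the Mcpt4 values was not tested.

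Anpep, aminopeptidase N, read 9.32, 9.20 and 9.20 in C, 8.54, 8.91 and 8.94 in C + P, 9.26, 9.57 and 9.40 in D, and 9.28, 9.19 and 9.96 in D + P. The C + P arrays were the lowest 3 of the 12. D + P differed from C + P by 0.68 (SE 0.21, limma adjusted p = 0.50), and by 0.44 without D + P replicate 3.

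**Figure D5:**
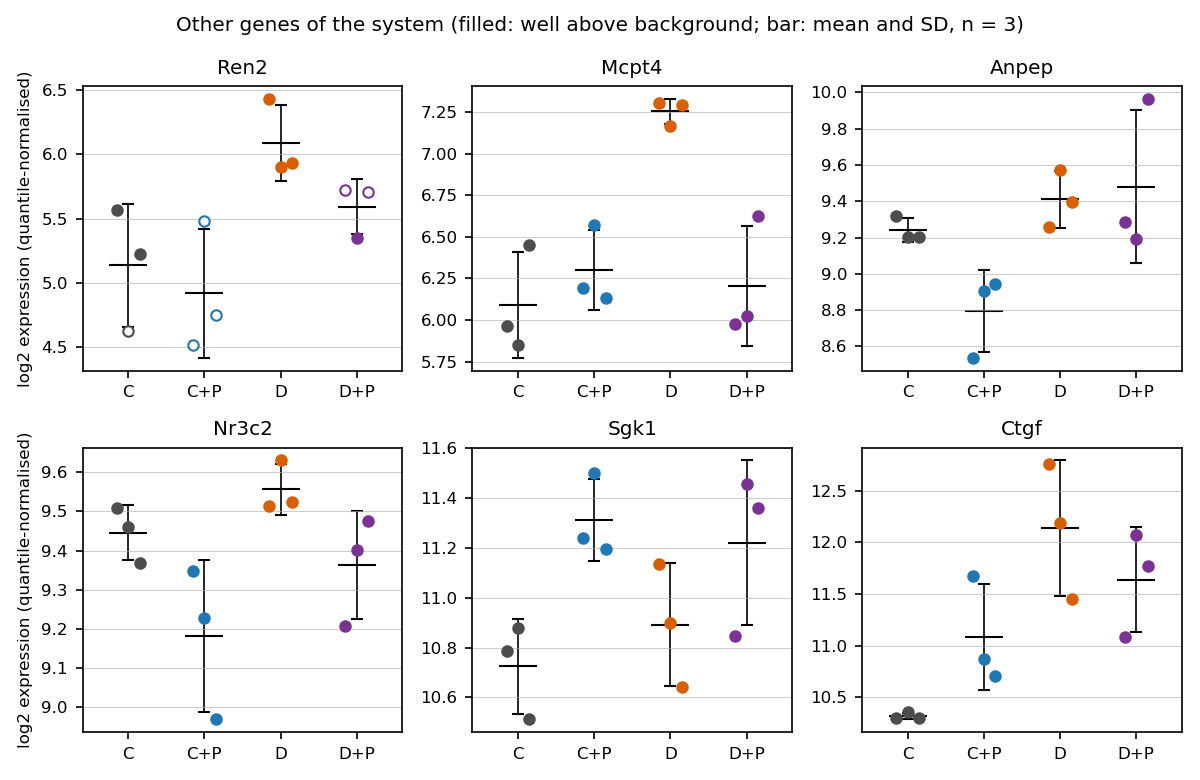
Log2 expression (y axis) of Ren2, Mcpt4, Anpep, Nr3c2, Sgk1 and Ctgf on each of the 12 arrays, by group on the x axis. Filled points are well above background and open points are not; the bar is the mean and SD of 3 arrays. The 3 D arrays of Mcpt4 lie at 7.17 or higher and its other arrays at 6.62 or lower.

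On the aldosterone side, aldosterone synthase (Cyp11b2) and 11-beta-hydroxylase (Cyp11b1) were not well above background on any array, and neither was Hsd11b2, which shields the mineralocorticoid receptor from glucocorticoids. Of the 15 genes listed, 8 were tested and 5 were on 12 arrays. None passed the adjusted threshold in any comparison. At an unadjusted p under 0.05, 1 of the 8 was higher and 0 lower in C + P against C (4.43% of all probes), and 0 passed in either direction for diabetes averaged over pargyline (11.4%) or with and without the drug. For pargyline averaged over diabetes 1 was higher and 0 lower (10.2%).

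Nr3c2, the mineralocorticoid receptor, was well above background on 12 arrays. It read 9.51, 9.46 and 9.37 in C, 9.35, 9.23 and 8.97 in C + P, 9.51, 9.63 and 9.52 in D, and 9.21, 9.40 and 9.48 in D + P. All 3 C + P arrays lay below all 3 C arrays, and all 3 D + P arrays below all 3 D arrays. C + P differed from C by -0.26 (SE 0.15, limma adjusted p = 0.9998) and D + P from D by -0.19 (SE 0.15, adjusted p = 0.58), and neither passed. Averaged over pargyline, diabetes differed by 0.15 (SE 0.10, limma adjusted p = 0.63) for Nr3c2, by 0.28 (SE 0.15, adjusted p = 0.53) for the sodium channel subunit Scnn1a, and by 0.13 (SE 0.11, adjusted p = 0.67) for the glucocorticoid receptor Nr3c1. With normexp background correction these differences were 0.25, 0.11 and 0.01, and that of Nr3c2 was 0.09 without C + P replicate 3. Sgk1, a kinase induced by both receptors and chosen after its values were seen, was the gene past the unadjusted threshold in C + P against C. It read 10.79, 10.88 and 10.51 in C and 11.24, 11.50 and 11.20 in C + P, which do not overlap, and differed by 0.59 (SE 0.21, adjusted p = 0.9998). In D it read 11.13, 10.90 and 10.64, and in D + P 10.85, 11.46 and 11.36.

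A list of 14 heart genes known to respond to angiotensin II was read beside these. Of them, 13 were tested, 12 were well above background on 12 arrays, and 0 passed the adjusted threshold in any comparison. At an unadjusted p under 0.05, 3 were higher and 0 lower in D against C (10.8% of all probes passed there in either direction), and 3 higher and 0 lower in C + P against C (4.43%). With pargyline 0 were higher and 1 lower in D + P against C + P (7.46%), and 0 higher and 1 lower in D + P against D (13.3%). For the interaction 0 were higher and 4 lower (7.03%), and for diabetes averaged over pargyline 1 was higher and 0 lower (11.4%). For pargyline averaged over diabetes 1 was higher and 0 lower (10.2%). Some markers of other cells moved beside these counts. The summed level of the 8 neutrophil markers was 10.13 to 10.36 in C, 10.54 to 11.58 in C + P, 10.64 to 10.99 in D and 10.27 to 10.63 in D + P. Of its 6 tested genes, 3 were higher in C + P against C and 4 lower in D + P against C + P at the unadjusted threshold. The summed level of the 4 atrial cardiomyocyte markers (Myl7, Myl4, Sln and Nppa) was 13.44 to 13.96 in C, 14.28 to 14.76 in C + P, 15.15 to 15.52 in D and 14.57 to 15.58 in D + P, with Sln well above background on 0 arrays. The neutrophil sum and the atrial sum, which mostly reads Nppa, were higher in C + P and in D than in C without overlap. Their part in the values of the 14 genes was not tested. Ctgf, a matricellular growth factor, read 10.30, 10.36 and 10.30 in C, 11.67, 10.87 and 10.70 in C + P, 12.76, 12.19 and 11.45 in D, and 11.08, 12.07 and 11.77 in D + P. No array of the other 3 groups fell within the range of C. Diabetes averaged over pargyline differed by 1.19 (SE 0.26, limma adjusted p = 0.14) for Ctgf, by 0.51 (SE 0.26, adjusted p = 0.49) for the natriuretic peptide gene Nppb, and by -0.96 (SE 0.50, adjusted p = 0.50) for the oxidase subunit Cybb. Cybb was not well above background on D replicate 1 (3.08) and D + P replicate 1 (4.52), and its difference was -0.47 without D replicate 1 and -0.31 with normexp background correction. For Nppb, D differed from C by 1.46 (SE 0.36, adjusted p = 0.27) and D + P from D by -0.96 (SE 0.36, adjusted p = 0.30), or by -0.62 without D + P replicate 1. With array weights in limma, D against C passed for Ctgf (1.74, adjusted p = 0.032) and Nppb (1.23, adjusted p = 0.048), and diabetes averaged over pargyline for Ctgf (1.31, adjusted p = 0.013).

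For the 5 members above background on every array, the genes with the most similar pattern were sought among 13831 probes. These were themselves well above background on 12 arrays, which leaves out Enpep. Of a gene with several such probes, the most correlated one was taken. Over 12 arrays the highest Pearson correlations with Agtr1a were those of Telo2 (0.94) and Ctcf (0.90). With Ace they were those of Lynx1 (0.94) and Timm13 (0.93), and with Agt those of Ptpre (0.88) and Gprc5b (0.84). With Agtrap they were those of Mkl2 (0.91) and Matk (0.90), and with Atp6ap2 those of Haglr (0.89) and Sf3b5 (0.84). These are the extremes of many correlations over few arrays.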

How the data were processed

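Gene expression was measured in 12 mouse hearts on Agilent one-colour arrays, 3 mice in each of 4 groups given by the labels. The authors labelled total RNA with Cy3, hybridised and scanned it, and deposited Feature Extraction output (version 12.0.0.7 per the file headers; the methods name another version). Its processed signal, an intensity after background subtraction on the linear scale, was used. The deposited series table of normalised intensity values served as an alternative. Probe positions are on the mm9 build of the files.

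Outlier-flagged spots were treated as missing, log2 values were quantile-normalised over non-control spots, and spots of a probe were averaged. Probes that were positive and significant on 50% or more of each group's arrays were kept (30859 of 56605). Differences were tested with limma 3.58.1 in R 4.3.3 (4 group means, moderated variance, prior degrees of freedom 2.62) and adjusted by Benjamini-Hochberg over all probes kept. The design with limma replaced the methods' t-test, which was an alternative. The fit was tested on simulated data. "Well above background" is the flag of the scanner software, and no depth applies to arrays; the number of arrays limits the precision. With several probes, the brightest tested one represents the gene.

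Named were all members. Of each other list, genes past the threshold were named or, with none, the 3 with the smallest unadjusted p for diabetes averaged over pargyline. For the 5 members well above background on 12 arrays, the 2 most correlated genes among those likewise above background on 12 arrays were named too. The members and lists were chosen with earlier results of these data known. All 11 member accessions matched the RefSeq symbol. Promoter sequences came from RefSeq (GRCm38.p6) and matched 7 of 8 members; the Agtr1a promoter was not analysed here. Alternatives were other scaling, background correction, filters, array weights, an intensity trend, the methods' t-test, the deposited table, blocks for replicate number and slide, and leaving out each array. Replicate numbers did not pair the samples: correlations of deviations ran from -0.20 to 0.20 for the same number.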

Additional observations from a re-analysis of the deposited data

Results flagged for a closer look

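The Ctsg probe, left out of the tests, was well above background on D + P replicate 3, at 5.92 on the log2 scale, while the 3 control arrays lay between 2.84 and 2.86.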

How the results depend on the processing

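The count of member probes called was 0 in each comparison under each of the 23 alternatives that could be fitted to it. For the representative probes of the 6 members other than Agtr2 and Ctsg, of 912 alternative log2 differences 855 kept their direction and 57 changed sign, and 0 passed the adjusted threshold (smallest adjusted p 0.0999, for Agt in C + P against C). Agtr1a stayed lower with pargyline: averaged over diabetes, its difference ran from -0.59 to -0.41 when 1 array was left out. With normexp background correction, the sign changed for Agt in D + P against C + P (0.0094), Ace in the interaction (0.03), Agtrap in D against C (0.0011), Atp6ap2 in D + P against C + P (-0.08), Enpep in D + P against C + P (-0.02). With array weights, the sign changed for Agt in diabetes averaged (-0.05), Agt in D + P against D (0.18), Ace in D + P against D (-0.0095), Agtr1a in the interaction (0.0093), Atp6ap2 in D + P against D (0.0049), Enpep in D + P against C + P (-0.14), Enpep in the interaction (-0.09). With scaling to the 75th percentile, the sign changed for Agt in D + P against D (0.02), Ace in the interaction (0.03), Agtrap in D against C (0.02). Leaving out 1 array in turn changed the sign at least once for these, given as the lowest to the highest value: Agt in D + P against C + P (-0.33 to 0.14), Agt in diabetes averaged (-0.0099 to 0.23), Agt in D + P against D (-0.15 to 0.20), Ace in the interaction (-0.30 to 0.24), Agtr1a in D + P against C + P (-0.02 to 0.34), Agtr1a in the interaction (-0.20 to 0.15), Agtrap in D against C (-0.15 to 0.08), Agtrap in D + P against C + P (-0.20 to 0.03), Agtrap in diabetes averaged (-0.11 to 0.0085), Agtrap in the interaction (-0.18 to 0.08), Atp6ap2 in D + P against C + P (-0.02 to 0.17), Atp6ap2 in diabetes averaged (-0.27 to 0.03), Atp6ap2 in D + P against D (-0.30 to 0.30), Enpep in D against C (-0.64 to 0.24), Enpep in D + P against C + P (-0.17 to 0.26), Enpep in diabetes averaged (-0.28 to 0.16), Enpep in D + P against D (-0.85 to 0.02), Enpep in the interaction (-0.16 to 0.71). Without changing sign, Ace ran from -0.41 to -0.03 in D against C, from -0.58 to -0.04 in D + P against C + P and from 0.05 to 0.55 in C + P against C, Atp6ap2 from -0.63 to -0.03 in D against C, and in C + P against C Agtrap from -0.19 to -0.02 and Enpep from -0.88 to -0.44. With normexp, Agtr1a differed by 0.42 in D against C and by -0.76 in D + P against D, and Agtrap, Enpep and Ace by -0.04, -0.35 and 0.07 in C + P against C. The cause of these changes was not tested. With the replicate block, the pairing by number called 0 member probes, and over all probes 4 for diabetes averaged over pargyline, against 33 without it. For the single comparisons it called 0 probes in D against C and 8 under pargyline (D + P against C + P), against 2 and 14. It called 6 for C + P against C and 0 in diabetic hearts (D + P against D), against 10 and 0. The numbers share no stated litter or day. With the slide as a block, 29 probes and 0 member probes were called for diabetes averaged. Array weights raised the count over all probes to 279 in D against C (from 2), 348 for diabetes averaged (from 33), 206 in C + P against C (from 10) and 135 for pargyline averaged (from 17), while it was 0 with and without them in D + P against D, and put 4 values past the threshold: Ctgf (1.31 for diabetes averaged, 1.74 in D against C), Mcpt4 (1.13) and Nppb (1.23) in D against C. Scaling moved the median of all probes by less than 0.1. Of the members, Agtr2 and Ctsg are limited by signal near background, and Enpep in part.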
